A study of Sus scrofa with 3 samples.

Results

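In pig liver, 10 names from miRBase, the registry of miRNA sequences, were marked by reads that ended in the 3 bases CCA, which made up 59.1% to 100% of the reads of a name in a library. The names were miR-2478, miR-4454, miR-4335, miR-3968, miR-1260, miR-1260b, miR-5097, miR-4286, miR-3676 and miR-1386. They were taken by name from the hairpins that the authors assigned to known miRNAs, without species prefix and copy number, and make up 10 of the 677 names with a read in any library. The names were selected on measured values of these libraries, the CCA end of their reads and the ratio of P7y over P30d, so both are given below as descriptions and support nothing further.

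Small RNA was sequenced from liver of Jinhua pigs, which are a Chinese breed and were all males here. The stages were day 90 of gestation (E90), day 30 after birth (P30d) and year 7 after birth (P7y), with 1 library each. Per the labels there were 3 pigs for each stage, and whether their RNA was pooled is not said. Every comparison is therefore of 1 library with 1 library, without a replicate check and without a p-value, and age, animal and library cannot be told apart.

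Transfer RNAs carry amino acids to the ribosome. Their genes in animals do not encode the CCA at the 3′ end, which an enzyme adds after transcription and to which the amino acid is attached. Mature tRNAs are cut into fragments in many tissues, and a fragment from the 3′ end starts in the T arm, a short stem closed by a loop, and keeps the CCA. Several names in miRBase have been re-examined as pieces of tRNA, human miR-3676 among them. The tables used here name no tRNA, so the tRNA from which a read might come was not analysed here.

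The annotated mature sequences show what each name stands for before any read is considered. They are written 5′ to 3′ with T for U, as in the deposited tables, and the capitals mark the seed, bases 2 to 8, which in a miRNA pairs with targets. Where a name had several hairpins or both arms annotated, the sequence is that of the most read hairpin and of its 5′ arm.

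miR-2478 (cow): gTATCCCActtctgacacca
miR-4454 (human): gGATCCGAgtcacggcacca
miR-4335 (pig): gTGCCCAGcgctgcagggca
miR-3968 (mouse): cGAATCCCactccagacacca
miR-1260 (Chinese hamster): aTCCCACCgctgccacca
miR-1260b (human): aTCCCACCactgccaccat
miR-5097 (mouse): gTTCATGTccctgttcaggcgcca
miR-4286 (cow): aCCCCACTcctggtacc
miR-3676 (human): aGGAGATCctgggtt
miR-1386 (platypus): cTCCTGGCtggctcgcca

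Only miR-1260 and miR-1260b shared a seed, TCCCACC, and the other 8 seeds each occurred in 1 name. Of the 10 names 1, miR-4335, was represented in the tables by a pig hairpin, and the other 9 by hairpins of other species.

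The most frequent read of each name in the P7y library shows how the sequenced RNA differed from the annotation. Here the capitals mark the CCA.

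miR-2478: tcccacttctgacaCCA
miR-4454: ccgagtcacggcaCCA
miR-4335: cccacgttgggcgCCA
miR-3968: tcccactcctgacaCCA
miR-1260: tcccaccgctgccaCCA
miR-1260b: atcccaccgctgccaCCA
miR-5097: ccctgttcgggcgCCA
miR-4286: ccccactcctggtaCCA
miR-3676: atcccagcggtgcctCCA
miR-1386: cctggctggctcgCCA

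The leading read ended in CCA for all 10 names in each of the 3 libraries. It lay whole inside the annotated mature sequence for 4 names in each library. It began so that its bases 2 to 8 equalled the annotated seed for 2 names at E90, 1 at P30d and 1 at P7y. For miR-4335 the leading read at E90 and at P7y was listed under the other arm than the annotated miRNA. That arm held 99.9% of the miR-4335 reads at E90 and 100% at P7y. Of the reads, 99.6% at E90 and 100% at P7y had no genome position. At P30d the same arm was listed for 97.9%, but only 6.36% had no position. The arm listed for a placed read can follow its genome window, so the P30d share is not set against the annotation.

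Several names differed by few bases. Over the last 16 bases of the most frequent CCA form, miR-1260 and miR-1260b were identical. Over the same stretch miR-2478 and miR-3968 differed by 1 base, T7C, counted from the first of the 16 bases, with the miR-2478 base first. Between miR-3968 and miR-4286 there were 2 changes, A11G and C12T. Reads of such names can be divided between them by the authors' mapping. The read shown above for miR-1260b was listed with 1132.5 reads under miR-1260b at E90, with 54.5 under miR-1260 at P30d, and with 1097.5 under miR-1260 and 1095 under miR-1260b at P7y. Fractions arise because the authors divided reads among hairpins.

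Across all reads of the 10 names, 97.0% ended in CCA at E90, with a 95% interval of 96.8% to 97.2%. At P30d 97.7% did (97.2% to 98.2%), and at P7y 99.1% (99.0% to 99.2%). Each read was given the end of the representative read of its line in the table. Intervals are exact (Clopper-Pearson for shares, Poisson for counts) and cover counting error only, and PCR copies of a molecule are not independent reads. Among the reads of all other names, 0.00486% ended in CCA at E90, 0.00398% at P30d and 0.00413% at P7y. In turn, of all reads of named miRNAs that ended in CCA, the 10 names held 98.6% at E90, 96.4% at P30d and 99.2% at P7y. Shares were lower for 4 of the names, and the other 6 had 94.6% or more in each library. For miR-3676 the CCA share came to 69.7% at E90, 59.1% at P30d and 83.2% at P7y. For miR-1386 it came to 75.9% at E90, 99.0% at P30d and 72.0% at P7y. miR-1260 had its lowest share, 81.9%, at E90, and miR-1260b had 79.1% at P30d, of 21.5 reads. Part of the other miR-3676 reads came from the annotated 5′ arm shown above, as the read acaggagatcctgggt. It begins just before the annotated sequence and stops just short of its end. It was listed with 85 copies at E90, 2 at P30d and 37 at P7y.

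Reads of the 10 names were shorter than those of other miRNAs. The median length was 17 nt in every library, against 22 nt at E90, 22 nt at P30d and 21 nt at P7y for all other names. Reads of 18 nt or less made up 97.1% of the reads of the 10 names at E90, 75.8% at P30d and 99.0% at P7y. Among all other names they made up 0.182% at E90, 1.5% at P30d and 0.189% at P7y. No representative read in the tables was shorter than 16 nt, so shorter fragments were not measured, although per the labels RNA of 14 to 40 nt was purified. The labels also name the value 6.0 for RNA integrity, and the part of RNA integrity in read length was not tested.

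**Figure D1:**
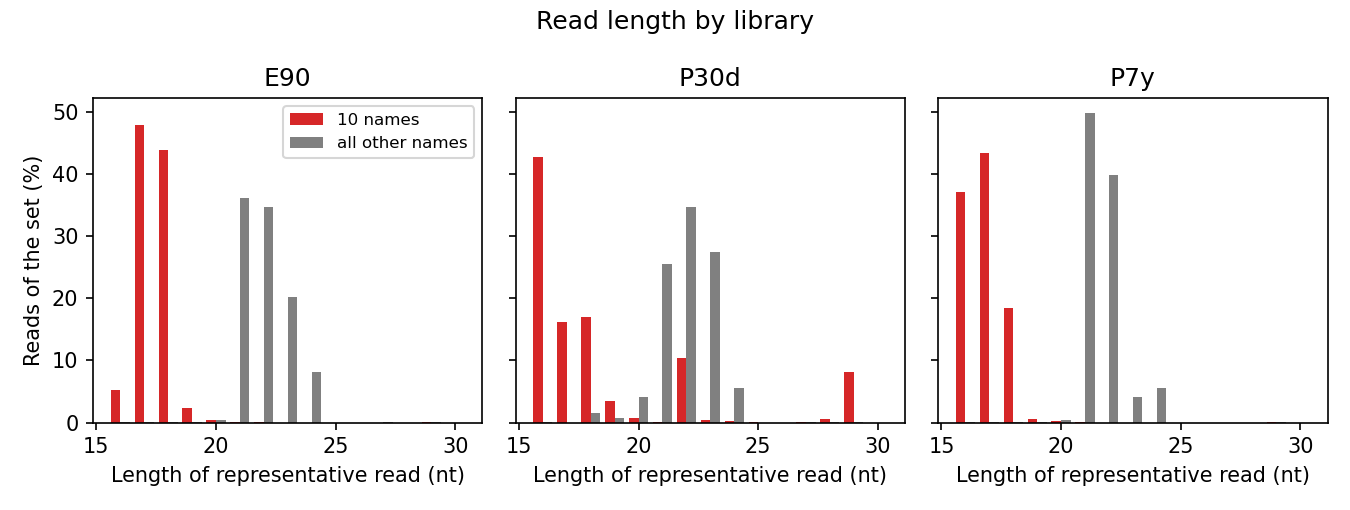
Share of reads (vertical axis, %) by length of the representative read (horizontal axis, nt) for the 10 names and for all other names in each library. The 10 names peak at 16 to 18 nt with a further 10.4% at 22 nt and 8.14% at 29 nt in the P30d library.

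Short and long forms moved in opposite directions at P30d, by length classes that were chosen after the lengths were seen. Forms of 18 nt or less of the 10 names summed to 3405 reads per 1000000 reads of named miRNAs (CPM) at E90, 814 CPM at P30d and 4796 CPM at P7y. Forms of 20 nt or more summed to 22.9 CPM at E90, 224 CPM at P30d and 21.1 CPM at P7y. The log2 ratio of the short forms was -2.06 for P30d over E90 (95% counting interval -2.12 to -2.01) and 2.56 for P7y over P30d (2.50 to 2.61). The log2 ratio of the long forms was 3.29 for P30d over E90 (3.07 to 3.51) and -3.40 for P7y over P30d (-3.63 to -3.18). Long forms were highest at P30d for 7 of the 10 names, and short forms were lowest at P30d for 9 of the 10, with miR-1386 the exception. Some of the 7 rest on few reads, such as 5 of miR-3968 at P30d. Such counts were not made for the other names. Summed over these, forms of 18 nt or less had 1816 CPM at E90, 15030 CPM at P30d and 1881 CPM at P7y. Short forms hold most reads of the 10 names, which were picked with P7y over P30d known. Nothing is read from their low P30d value. Without miR-5097, long forms summed to 19.7 CPM at E90, 128 CPM at P30d and 12.3 CPM at P7y.

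Within the short forms the length differed as well. Forms of 16 nt summed to 185 CPM at E90, 459 CPM at P30d and 1799 CPM at P7y. Forms of 17 to 18 nt summed to 3220 CPM at E90, 356 CPM at P30d and 2997 CPM at P7y. For P7y over E90 the log2 ratio was 3.28 for 16 nt (3.21 to 3.35) and -0.10 for 17 to 18 nt (-0.13 to -0.08). A form is the representative read of a line, so a change of representative moves all reads of the line. For miR-4335 the 17-nt read ccccacgttgggcgCCA led 99.6% of the reads at E90, and the 16-nt read shown above led 100% at P7y.

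Counting only exact copies of the representative reads, forms of 20 nt or more made up 0.772% of the copies at E90, 11.9% at P30d and 0.409% at P7y. A long read that the authors folded into the line of a shorter one is not seen in either count. The P30d library was the shallowest, with 3622993 reads of named miRNAs against 9243601 at E90, and the P7y library held 9920207. Reads of all other names had a median of 22 nt at E90 and at P30d. The part of depth in the length of the 10 names was not tested.

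Some long forms are shown because they extend the short reads at the 5′ end and keep the CCA. The start TCG and the length window were not set before the reads were seen. Of the 21 distinct CCA reads of 20 nt or more, 5 began with TCG. Of the 9 distinct CCA reads of 21 to 22 nt, 5 began with TCG, marked here in capitals with the CCA, and these 5 belonged to 5 different names.

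miR-4454: TCGgatccgagtcacggcaCCA
miR-2478: TCGtatcccacttctgacaCCA
miR-1386: TCGgctcctggctggctcgCCA
miR-4335: TCGagccccacgttgggcgCCA
miR-1260b: TCGatcccaccgctgccaCCA

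The reads given for a form are those of the lines that it led, and exact copies of it can be fewer. The form of miR-4454 led 254 reads at P30d, with 29 exact copies, and was not listed at E90 or P7y. The form of miR-1386 led 77.5 reads at P30d, with 46 exact copies, and was not listed at the other stages. The form of miR-2478 led 36 reads at E90 (15 exact copies), 57 at P30d (46 exact copies) and none listed at P7y. In contrast, the form of miR-1260b had 9 reads, all at P7y. Among distinct reads of 21 to 22 nt of all other names, 1.37% began with TCG at E90, 1.51% at P30d and 1.53% at P7y. Those reads were not limited to CCA ends. In tRNAs the loop of the T arm commonly holds TTCGA, and which bases stood before these reads was not analysed here.

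For 2 names the long reads held a whole stem and loop. The search, chosen after the data were seen, was for 5 bases, then a loop of 7 bases that opens with TTC, then 5 bases that pair with the first, on the strand given. The pairing bases are in capitals.

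miR-5097, 29 nt: cCAGGGttcatgtCCCTGttcgggcgcca
miR-3676, 28 nt: CTGGGttcgaatCCCAGcggtgcctcca

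The stem was found in 9 of 140 distinct reads of 17 nt or more of the 10 names, which is 6.43%, all of them under miR-5097 (3 reads) and miR-3676 (6 reads). It was found in 1 of 1726 such reads of other names, or 0.0579%. A match shows only that the letters can pair, and reads too short to hold the arm could not match. The 29-nt read of miR-5097 led lines of 21 reads at E90, 303 reads at P30d and 71 reads at P7y. Its exact copies numbered 8 at E90, 123 at P30d and 33 at P7y. At P30d it was the leading read of that name, and the lines it led held 50.4% of the reads of the name. The 28-nt read of miR-3676 led 16 reads at P30d, with 7 exact copies, and was not listed at E90 or P7y.

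The 2 ends of the reads differed in how much they varied. Over the 3 libraries together, the commonest last 8 bases held a median of 97.3% of the reads of a name (range 73.4% to 99.9%), and the commonest first 8 bases a median of 60.8% (44.7% to 89.1%). The end was more uniform than the start for 10 of the 10 names. For the 109 other names with at least 3 distinct reads and 100 reads on their main arm the order was the reverse. Their medians were 85.2% for the commonest end and 99.9% for the commonest start, and the end was the more uniform for 16 of the 109. In miR-2478 the reads began at 21 different first 8 bases and ended in 7 different last 8 bases. The shared ends overlap with what the names were chosen for.

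**Figure D2:**
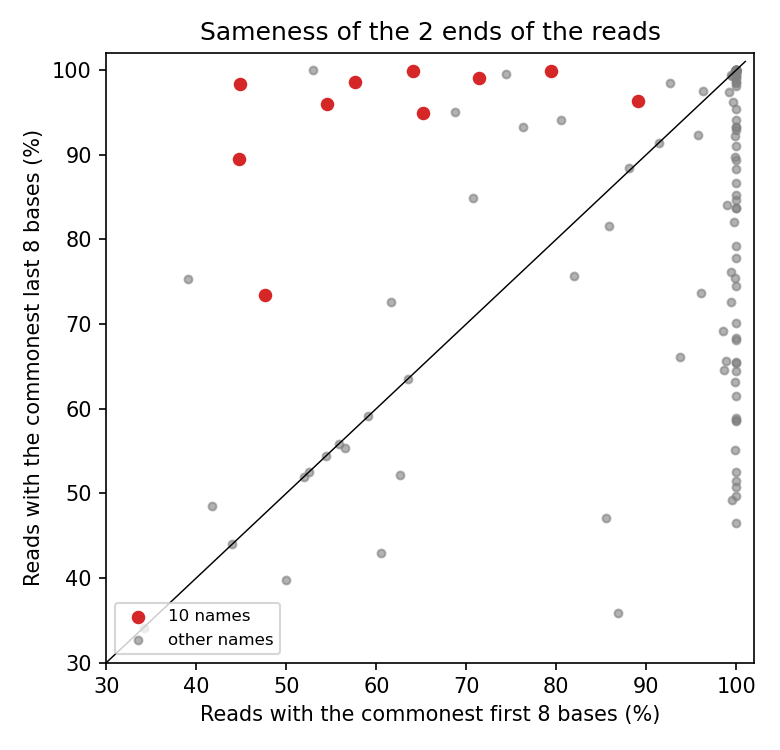
Share of the reads of a name with its commonest first 8 bases (horizontal axis, %) and last 8 bases (vertical axis, %), over the 3 libraries, for the 10 names and 109 other names. The line marks equal shares, and all 10 names lie above it while 16 of the 109 others do.

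The hairpins of these names had almost no place on the pig genome (Sscrofa10.2). Reads whose hairpin was placed made up 0.173% of the reads of the 10 names at E90, 0.103% at P30d and 0.408% at P7y, against 97.6%, 96.7% and 98.9% for all other names at these stages. Reads that were placed without their hairpin made up 56.4% at E90, 73.1% at P30d and 52.9% at P7y. Reads that were not placed at all made up 43.5% at E90, 26.8% at P30d and 46.7% at P7y, against 1.88%, 2.33% and 0.822% for the other names. Placement of the same read could differ between libraries, so these shares do not show absence from the genome. The miR-4335 read ccccacgttgggcgCCA had no position at E90, where it led 2464 reads. At P30d it was placed on chromosome 15 without a mismatch, with 458.5 reads. A name had between 5 distinct genome positions, for miR-3968, and 34, for miR-2478, counting windows that begin within 300 bases on a strand as 1. The median for the 410 other names with a position was 1, and 24 of them had 5 or more. These other names include those with a placed hairpin, and names of like read length or placement were not compared. Different reads of a name can add positions, and the 34 of miR-2478 came from 66 lines.

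**Figure D3:**
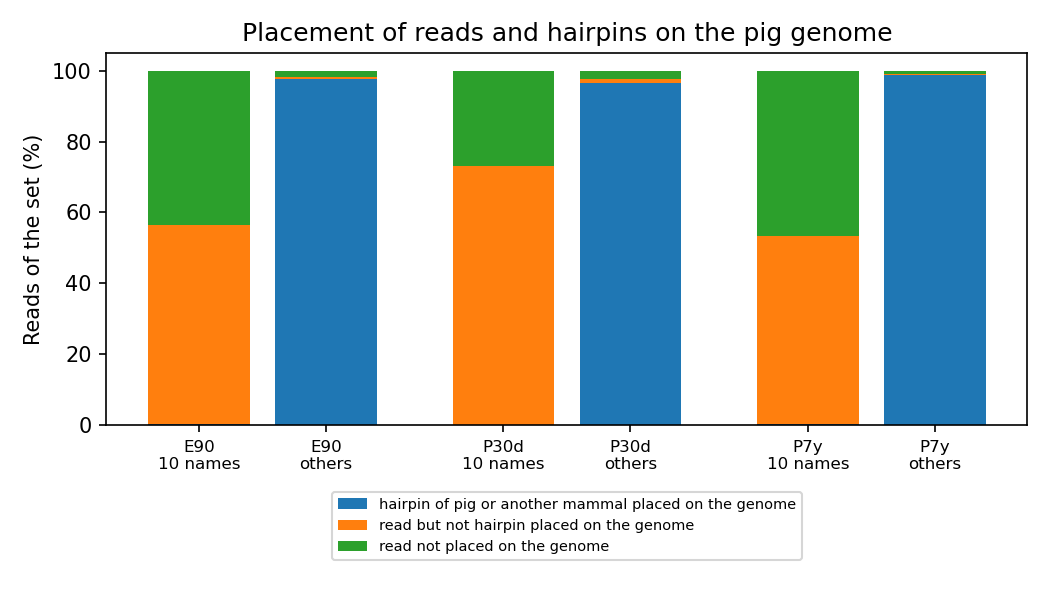
Share of reads (vertical axis, %) by placement on the genome for the 10 names and all other names in each library. Hairpins of the 10 names are placed for at most 0.408% of reads, and for 96.7% or more of the reads of the other names.

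Of the lines placed without a hairpin, 52 of 92 (56.5%) had 1 mismatch to the genome at E90, 57 of 88 (64.8%) at P30d and 31 of 65 (47.7%) at P7y. Such lines of all other names had 1 mismatch in 62.8% of cases at E90, 63.5% at P30d and 60.0% at P7y, so mismatches were not more frequent in the 10 names at E90 or P7y and close to the others at P30d. The mismatch lay in the last 3 bases in 9 lines of the 10 names at E90, 9 at P30d and 10 at P7y, against 55, 57 and 30 lines of the other names at these stages. The 10 names differed among themselves. Over the 3 libraries, 41 of the 66 placed lines of miR-2478 matched in full, and these held 97.2% of its placed reads. For miR-4454 none of the 18 placed lines matched in full, and for miR-1260b 1 of 19 did, with 0.0771% of its placed reads.

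The positions of miR-2478, miR-4454 and miR-3676 show the range, each printed as the strand that was matched, with the bases under the read in capitals. The coordinates are the window given in the tables, which is wider than the printed sequence. The window for miR-2478 is chr1:313993239-313993496 (+), that for miR-4454 is chr1:196587049-196587307 (-) and that for miR-3676 is chr6:38547079-38547345 (+). Genes, exons and introns at these positions were not analysed here.

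miR-2478, no mismatch: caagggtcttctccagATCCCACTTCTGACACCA
miR-4454, 1 mismatch inside the read: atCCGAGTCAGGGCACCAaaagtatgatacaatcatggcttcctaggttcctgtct
miR-3676, 1 mismatch at the end: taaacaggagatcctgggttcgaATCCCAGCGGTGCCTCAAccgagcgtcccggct

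At the miR-4454 position the change was C9G, counted from the 5′ end of the read with the base of the read first. At the miR-3676 position it was C17A, within the last 3 bases of the read. The same genome stretch holds the stem and loop described above, upstream of and into the read. No line of miR-3676 had CCA in the genome under the end of the read, in 30 lines. At least 14 of these lines had a read that did not end in CCA either, since they matched the genome in full. Such lines could not have shown a CCA, so the count of 30 overstates what was examined. Of its 15 positions, 10 lay on chromosome 7 between bases 22104593 and 24361565. In lines of all 10 names without a placed hairpin, the genome held CCA under the end of the read in 45 of 92 lines at E90, 49 of 88 at P30d and 37 of 65 at P7y. These counts also include lines whose read did not end in CCA.

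Together the 10 names amounted to 3507 CPM at E90, with a 95% counting interval of 3469 to 3546 CPM. At P30d the sum was 1075 CPM (1042 to 1109) and at P7y it was 4842 CPM (4799 to 4885). That was 0.351%, 0.108% and 0.484% of the reads of named miRNAs at these stages. All 10 had reads in every library, and all 10 passed the filter of a mean of 10 CPM that 247 names passed. A count of 0 would have allowed up to 0.325 CPM at E90, 0.828 CPM at P30d and 0.302 CPM at P7y.

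**Figure D4:**
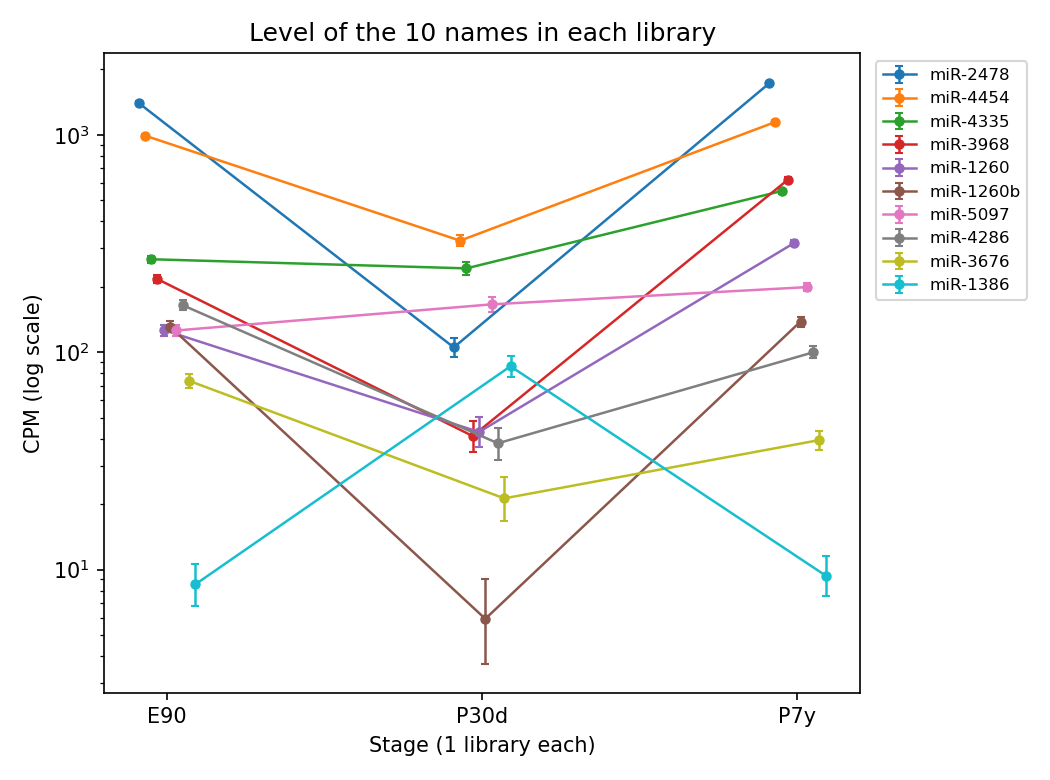
Level of each name (vertical axis, CPM, log scale) in the libraries of E90, P30d and P7y (horizontal axis), with 95% counting intervals. Of the 10 names 8 have their lowest value at P30d, miR-5097 has its lowest at E90, and miR-1386 has its highest at P30d.

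At E90 and P7y, miR-2478 and miR-4454 held most of the reads of the 10 names. miR-2478 had 1401 CPM at E90, 105 CPM at P30d and 1721 CPM at P7y. miR-4454 had 992 CPM at E90, 326 CPM at P30d and 1145 CPM at P7y. miR-2478 was the most abundant of the 10 at both these stages, and at P30d miR-4454, miR-4335 and miR-5097 stood above it.

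The names nearest in sequence to miR-2478 also had a low P30d library. miR-3968, 1 base apart over the shared stretch, had 217 CPM at E90, 41.1 CPM at P30d and 621 CPM at P7y. miR-4286 had 164 CPM at E90, 38.1 CPM at P30d and 99.8 CPM at P7y. At P30d the intervals of miR-1260, miR-3968 and miR-4286 overlapped, and at E90 those of miR-1260, miR-1260b and miR-5097 did, so these neighbours in the order of levels do not differ beyond counting error.

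miR-1260 had 126 CPM at E90, 42.9 CPM at P30d and 318 CPM at P7y. miR-1260b had 131 CPM at E90, 5.93 CPM at P30d and 138 CPM at P7y. The P30d value of miR-1260b rested on 21.5 reads, and the read that it shares with miR-1260 was assigned to miR-1260 there. Pooled, the 2 names had 257 CPM at E90, 48.9 CPM at P30d and 456 CPM at P7y, which keeps P30d the lowest.

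Other patterns were seen in miR-4335, miR-5097 and miR-1386. miR-4335 had 268 CPM at E90, 243 CPM at P30d and 551 CPM at P7y. miR-5097 had 126 CPM at E90, 166 CPM at P30d and 199 CPM at P7y. Its forms of 18 nt or less had 123 CPM at E90, 70.4 CPM at P30d and 190.3 CPM at P7y, so the P30d level included 95.5 CPM of forms of 20 nt or more.

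miR-1386 had 8.55 CPM at E90, 86.1 CPM at P30d and 9.37 CPM at P7y and was the 1 name with its highest level at P30d. Both its shorter and its longer forms were highest at P30d. The forms of 18 nt or less had 57.4 CPM there and those of 20 nt or more had 23.7 CPM. The intervals of its E90 level (6.77 to 10.7 CPM) and its P7y level (7.57 to 11.5 CPM) overlapped.

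miR-3676 had 73.8 CPM at E90, 21.3 CPM at P30d and 39.4 CPM at P7y. Of its reads 4 were also listed under miR-5100, a name outside the 10 whose reads end alike. Pooled with miR-5100 it had 89.0 CPM at E90, 45.3 CPM at P30d and 49.3 CPM at P7y.

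For P30d against E90, a name was called higher or lower where the CPM differed by at least 2-fold and the counting interval of the log2 ratio excluded 0. Of the 10 names 7 were called lower, 1 higher and 2 neither. Among all 247 names tested, 37.7% were called lower and 29.1% higher. The log2 ratio of miR-1260b was -4.43 (-5.11 to -3.83), and pooled with miR-1260, whose name its shared read carried at P30d, it was -2.40 (-2.63 to -2.18). That of miR-2478 was -3.74 (-3.89 to -3.59) and that of miR-3968 was -2.40 (-2.65 to -2.16). miR-1386 was the name called higher, with a log2 ratio of 3.33 (2.97 to 3.71). miR-4335, at -0.14, and miR-5097, at 0.40, were not called. Pooled with miR-5100, miR-3676 was not called either, with a log2 ratio of -0.98 in place of -1.80. By copies of the representative read, miR-4454 was not called, at -0.86 in place of -1.61. The median log2 ratio was -1.70 over the 10 names and -0.23 over all 247. The P30d library also entered the ratio of P7y over P30d known when the names were picked. A low P30d value was thus favoured by the choice, and nothing is read from the difference.

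For P7y against P30d, 7 of the 10 names were called higher, 1 lower and 2 neither, where 15% of the 247 names were called higher and 55.9% lower. This is the contrast known when the names were picked, and nothing is read from the difference. The log2 ratio was 4.51 for miR-1260b, or 3.22 when pooled with miR-1260. It was 4.03 for miR-2478, 3.92 for miR-3968 and 2.88 for miR-1260. miR-1386 was called lower, at -3.20. By copies, miR-4335 was not called, at 0.41 in place of 1.18. miR-3676, at 0.89, and miR-5097, at 0.26, were not called. The median was 1.60 over the 10 names and -1.34 over all 247.

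For P7y against E90, 3 of the 10 names were called higher, none lower and 7 neither, where 13.8% of the 247 names were called higher and 53.8% lower. The 3 were miR-3968, with a log2 ratio of 1.52 (1.45 to 1.59), miR-1260, at 1.33 (1.23 to 1.43), and miR-4335, at 1.04 (0.97 to 1.11). In CPM miR-2478 had 0.30 and miR-4454 0.21, against 1.52 and 1.43 with TMM factors. For miR-4454 the ratio was 1.51 by copies of the representative read and -3.60 for reads without a mismatch, so it has no settled direction. miR-3676 had the lowest ratio, -0.90 (-1.09 to -0.72). The median was 0.25 over the 10 names and -1.25 over all 247. With TMM factors in place of CPM, 8 of the 10 were called higher and none lower. Over names with reads in both libraries of this pair, the median was 0.05 with TMM and -1.20 in CPM. The median with TMM was -0.27 for P7y over P30d, where 9 of the 10 were then called higher. The 3 comparisons share their libraries, so they are not independent of each other. The P7y library also entered the ratio known when the names were picked.

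**Figure D5:**
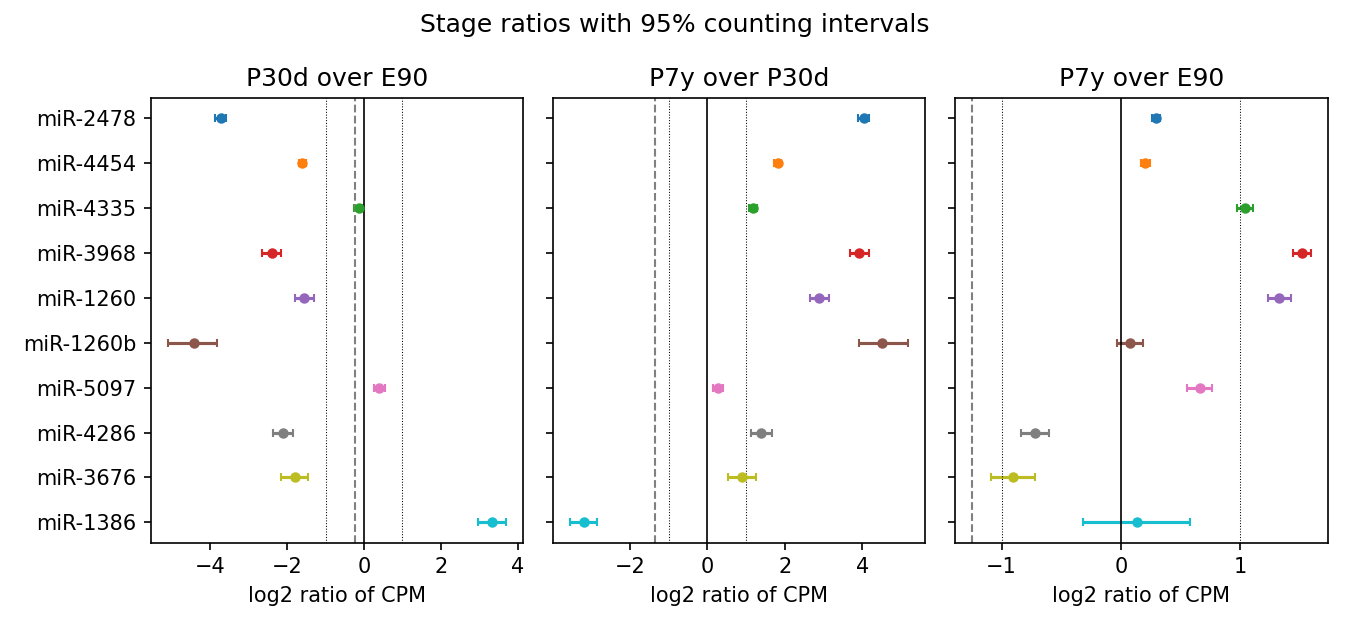
Log2 ratio of CPM (horizontal axis) of each name for the 3 pairs of libraries, with 95% counting intervals. Dotted lines mark 2-fold, the grey dashed line the median of all 247 names, and the 10 names have medians of -1.70, 1.60 and 0.25 in the panels from left to right, whose horizontal scales differ.

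The sum of the 10 names had a log2 ratio of -1.71 for P30d over E90, 2.17 for P7y over P30d and 0.47 for P7y over E90. Of 149 other names with a mean of 100 CPM or more, miR-143 had the pattern over the 3 libraries nearest to that of the sum, at a distance of 0.39 on the centred log2 scale. miR-143 is known from smooth muscle and mesenchymal cells. It had 51253 CPM at E90, 17820 CPM at P30d and 102750 CPM at P7y. miR-148a, miR-28, miR-100 and miR-99b came next, with distances of 0.76, 0.76, 0.84 and 0.85. The 3 libraries give such a likeness little weight.

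Outside the 10 names, reads that end in CCA were few. miR-5100 had 13.5 CPM of them at E90, 23.5 CPM at P30d and 9.88 CPM at P7y. miR-770 had 8.11 CPM at E90, 6.62 CPM at P30d and 12.2 CPM at P7y. In all, 11 other names had 10 or more such reads in a library, and the rest of these names had at most 8.83 CPM of them. In a list of 10 further names drawn up as linked to tRNA, such as miR-720 and miR-1274, miR-4521 was the 1 name with a read, and it had 1 read, at E90. Of 5 names listed as linked to other structured RNA, miR-1246 was the 1 name with reads, with 95 at E90, 14 at P30d and 84 at P7y.

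Markers of cell types differed between the libraries as well. In bulk tissue fewer cells of a type and less RNA per cell cannot be told apart. The 4 hepatocyte miRNAs held 31.3% of all named reads at E90, 36.5% of them at P30d and 28.8% at P7y, but not all in the same order. miR-122-5p had 128017 CPM at E90, 213802 CPM at P30d and 37870 CPM at P7y. miR-148a-3p was lowest where miR-122-5p was highest, with 75920 CPM at E90, 41822 CPM at P30d and 95666 CPM at P7y. miR-192-5p had 109466 CPM at E90, 109310 CPM at P30d and 154836 CPM at P7y. miR-194-5p, counted under the plain name only, had 23.7 CPM at E90, 46.4 CPM at P30d and 19.4 CPM at P7y. The names miR-194a and miR-194b, with 131866 and 126362 reads at E90 against 392 for miR-194, are left out of the hepatocyte sum. For comparison, the 4 erythroid miRNAs held 0.723% at E90, 0.303% at P30d and 0.182% at P7y, with 3 of the 4 highest at E90. The 5 leukocyte miRNAs held 0.0962% at E90, 0.345% of them at P30d and 0.0944% at P7y. The highest value was at P30d for 3 of the 5. At P30d most of this sum was miR-142-5p, which had 374 CPM at E90, 2956 CPM at P30d and 609 CPM at P7y. miR-223-3p had 296 CPM at E90, 50.2 CPM at P30d and 83.1 CPM at P7y, so its lowest value was at P30d. miR-142-3p had 195 CPM at E90, 189.9 CPM at P30d and 105 CPM at P7y. Of 3 striated muscle miRNAs, 2 had reads in all libraries, and the list held 0.00151% at E90, 0.00420% at P30d and 0.00303% at P7y. What part these cell types had in the levels of the 10 names was not tested.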

How the data were processed

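The deposited tables, 1 for a library, hold lines by hairpin and arm. Per the file headers, mapping went to miRBase hairpins of mammals, pig included, and then to the pig genome with expressed sequence tags. The deposited numbers of reads per arm are expected counts, since reads that fit several hairpins are divided among them, and the deposited numbers of copies of a representative read are counts. Sscrofa10.2 is the build in the submitters' processing notes. Aligner, trimming and miRBase release were not stated in these sources. The deposited length, genome window and mismatch number of a line were used as given. Reads without a mismatch, used as an alternative, are those without one to the reference sequence of their line, and they include reads with no genome position.

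The 10 names, the lists and the comparisons were chosen with earlier results of these data known. Expected counts were summed over arms and hairpins of a name and rounded to whole numbers for ratios and intervals. CPM were taken per 1000000 reads of named miRNAs, and predicted hairpins were left out. Ratios carry exact conditional binomial 95% intervals, with a count of 0 set to 3 reads. Some reads were listed under both arms, 8 of 83 at E90, 12 of 76 at P30d and 5 of 62 at P7y, and these held 35.3%, 4.71% and 0.403% of the reads of the 10 names, so arms are described for miR-4335 alone. Text names follow a rule: all 10 names, the 5 with the nearest pattern, names with CCA reads, and listed markers. Interval code was tested on simulated counts. Alternatives were TMM (edgeR 4.0.16), size factors of DESeq2 1.42.0, other totals, filters and read types. Python 3.11.15, pandas 2.3.3, SciPy 1.17.1 and matplotlib 3.10.9 were used.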

Additional observations from a re-analysis of the deposited data

Results flagged for a closer look

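Reads that end in CCA also occurred under predicted hairpins, which carry no miRNA name and entered no comparison above, and which were looked at because any such reads exceeded the limit that a count of 0 allows in every library. One predicted hairpin on chromosome 12, with the 19-nt read attcccggccaacgcaCCA, had 456 reads at E90, 29 reads at P30d and 583 reads at P7y. Its level was 49.3 CPM at E90, 8.0 CPM at P30d and 58.8 CPM at P7y. Another on chromosome 5, with the read ccccgcgcggctccctCCA, had 33 reads at E90, 21 reads at P30d and 19 reads at P7y.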

How the results depend on the processing

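No paired analysis was possible because each stage has 1 library. Of 180 ratios of single names under alternatives, 147 kept direction and call, 3 lost the call, 19 gained one and 11 changed sign. Of these 11, 8 were called neither before nor after: miR-4335 for P30d over E90 (0.05 with TMM, 0.78 by copies), miR-5097 for P30d over E90 (-0.98 without mismatches), miR-4286 (0.50 with TMM, 0.45 with DESeq2), miR-3676 (0.32 and 0.27) and miR-1386 (-0.05 without mismatches), these last 3 for P7y over E90. The lost calls were miR-4454 for P30d over E90 and miR-4335 for P7y over P30d, by copies (-0.86 and 0.41), and miR-1260b for P7y over P30d without mismatches (0.27). With reads without a mismatch only, the ratio of miR-4454 became -1.38 for P7y over P30d and -3.60 for P7y over E90, and that of miR-1260b for P30d over E90 became 1.27. Few reads of either name lack a mismatch. In the same setting, 2 names rather than 1 were lower for P7y over P30d, and 2 rather than 0 for P7y over E90. miR-1260b, miR-3676 and miR-1386 do not pass a filter at 100 CPM. With it, no name was higher for P30d over E90 (0) or lower for P7y over P30d (0). The filter also takes miR-1260b and miR-3676 from the names called lower for P30d over E90. For P7y over E90, TMM gave 8 names higher and DESeq2 size factors 8, and the sum of the names was then called higher, at 1.69 with TMM and 1.64 with DESeq2. The direction of the sum in each pair was the same in all 7 alternatives. The sum at E90, P30d and P7y was 2531, 886.1 and 8141 CPM with TMM, and 2616, 858 and 8139 with DESeq2 factors. It was 7709, 2599 and 13323 without the 8 names that are among the 5 most abundant of any library, and 2666, 589 and 4017 for reads without a mismatch. It was 3976, 1295 and 6918 for copies of the representative read, and 2106, 970 and 3121 without miR-2478. With predicted hairpins in the total it was 3447 at E90 and 1032 at P30d. Counted by copies, 96.3% of reads ended in CCA at E90 and 99.2% at P7y. After seeing the data, miR-1260 was pooled with miR-1260b and miR-3676 with miR-5100, which left 5 names lower for P30d over E90. With 1 library per stage, the spread between animals was not measured, and at P30d the lower depth widens the intervals.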
